A study of Mus musculus with 4 samples.

Results

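Single-cell RNA-Seq of YUMMER1.7 tumors was used to compare mice given anti–PD-1/anti-MIF with mice given anti-MIF alone, that is, to describe what the PD-1 antibody added to blockade of macrophage migration inhibitory factor. Cells were taken from both treatment cohorts when they held 200 to 5000 genes and at most 5% mitochondrial unique molecular identifiers (UMIs, each standing for 1 captured RNA molecule). A cell was given to an arm when 1 hashtag, the DNA barcode on the antibody that marks the mice of an arm, had at least 3 times the UMIs of the next hashtag. Of 7503 deposited barcodes, 7319 were within these limits and 6625 were given to 1 of 5 hashtags. The comparison rests on 2226 of them, 1462 of the anti-MIF arm and 764 of the combined arm. In the long cohort the arms held 895 and 288 cells, and in the short cohort 567 and 476 cells.

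All animals were male C57BL/6J mice, 7 to 8 weeks old, carrying subcutaneous YUMMER1.7 tumors, a mouse melanoma line with a high load of mutations. Treatment was intraperitoneal and started on day 7, at about 40 mm3. Anti-MIF was clone IIID.9 at 20 mg/kg, and the combined arm received in addition the PD-1 antibody RMP1-14 at 10 mg/kg. The long cohort was treated for 2 weeks with 4 doses and its tumors were taken on day 21, and the short cohort was treated for 1 week with 2 doses and its tumors were taken on day 14. Isotype and anti–PD-1 arms were run in the same 2 libraries. They are quoted for orientation, and they also enter the edgeR fit below, where they share in the estimate of the spread. Cells were sorted on CD45, the marker of blood-derived cells, and recombined as 20% CD45-negative and 80% CD45-positive cells, so the shares below describe the mixture and not the tumor. The cells of an arm share 1 hashtag, so an arm has 1 sample in each cohort, the number of mice behind it is not given in the sources used here, and the cells of single animals cannot be told apart.

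PD-1 is an inhibitory receptor that T cells display after activation, and its ligand PD-L1 is displayed by tumor cells and by many myeloid cells, which raise it in response to interferon-γ. MIF is a secreted cytokine that signals through CD74, a protein that myeloid cells make in large amounts because it is also the invariant chain of MHC class II, together with the co-receptor CD44 and the chemokine receptors CXCR2 and CXCR4. Tumor macrophages arise largely from blood monocytes, which carry Ly6C and lose it as they mature, while complement C1q marks mature macrophages.

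The whole comparison depends on which of 2 oligonucleotides a cell carried, so both are given here, with capitals at the 12 of 15 positions where they differ from each other.
anti-MIF hashtag: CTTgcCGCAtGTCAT
anti–PD-1/anti-MIF hashtag: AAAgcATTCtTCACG
In the long cohort the median cell held 6.54 times as many UMIs of its own hashtag as of the next in the anti-MIF arm and 6.64 times as many in the combined arm. In the short cohort the medians were 14.2 and 20. Just inside the limit, at 3 to 4 times, lay 102 long anti-MIF and 31 long combined-arm cells against 13 and 9 in the short cohort. Just outside it, at 2 to 3 times, lay 92 and 19 long-cohort barcodes against 10 and 19 in the short cohort. The arms were therefore separated less widely in the long cohort. The long and short libraries shared 20 barcode sequences.

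Depth differed between the arms. The median cell of the long cohort held 10548 UMIs after anti-MIF and 8969 after anti–PD-1/anti-MIF, and that of the short cohort 6381 and 5677. In total the 4 samples held 9495607, 2658344, 3760366 and 2820881 gene UMIs in the same order. Levels are given as UMIs in 1000000 gene UMIs of the sample (CPM), or of the T cells or myeloid cells of the sample where these are described. Intervals are 95% intervals and, like the limits set by counts of 0, cover counting error only.

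The long anti-MIF sample stood apart from the isotype, anti–PD-1 and combined arms of its library in Hspa1a, an inducible HSP70 gene. Such heat shock transcripts are induced when proteins misfold. In its T cells Hspa1a was at 15.4 CPM, against 429 in the isotype, 671 in the anti–PD-1 and 902 in the combined arm. In its myeloid cells Hspa1a was at 104 CPM, against 725, 543 and 755 in those arms. The list of stress and immediate early genes summed to 3057 CPM in its T cells, against 4363, 5759 and 7618 CPM. In its myeloid cells that list summed to 9377 CPM, against 9335, 8648 and 10866 CPM, so there the whole list did not stand apart. In the short cohort Hspa1a in T cells was at 246 CPM after anti-MIF and 281 after anti–PD-1/anti-MIF. Every long-cohort ratio below has the long anti-MIF sample as its denominator, and the part of the Hspa1a difference in the other results was not tested.

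T cells were taken as cells with at least 1 UMI of Cd3e, a chain of the T cell receptor complex, and at most 2 UMIs of Lyz2, the lysozyme gene of myeloid cells. Myeloid cells had at least 3 Lyz2 UMIs and no Cd3e UMI. At the edge of the T cell gate, 20 and 3 long-cohort and 13 and 11 short-cohort T cells held a single Cd3e UMI (anti-MIF first), and just outside the myeloid gate 55, 27, 58 and 42 cells in the same order held 1 or 2 Lyz2 UMIs and no Cd3e. Markers that the gates did not use bore them out. Cd3d, another chain of the complex, was at 1072 and 1128 CPM in the T cells of the long cohort and at 948 and 930 CPM in those of the short cohort (anti-MIF first). Macrophage markers other than Lyz2 summed to 99.9 and 25.9 CPM in long-cohort T cells and to 13.2 and 6.12 CPM in short-cohort T cells, and among them Mrc1 had no UMI. Of 8 melanoma markers, Mlana, Dct, Tyr, Tyrp1 and Sox10 had no UMI in any of the 4 samples, and the most abundant was Mitf. Cells with at least 3 UMIs over this list numbered 30 and 11 in the long cohort, against 27 and 22 in the short, and were not read as tumor cells.

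The share of T cells did not separate the arms. In the long cohort 110 of 895 cells (12.3%) were T cells after anti-MIF and 43 of 288 (14.9%) after anti–PD-1/anti-MIF, a difference of 2.64 percentage points (-1.68 to 7.63). The short-cohort shares were 9.35% (53 cells) and 8.19% (39 cells), a difference of -1.15 points (-4.58 to 2.37). Neither interval excluded 0, and the directions were opposite. After every cell was thinned to 2000 UMIs, which left out 49 and 21 shallower long-cohort cells and 73 and 47 short-cohort cells, the differences were 4.44 points (0.0973 to 9.53) and -0.932 points (-4.29 to 2.51).

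Myeloid cells were the largest lineage. Their share was 59.3% after anti-MIF and 51.0% after anti–PD-1/anti-MIF in the long cohort, a difference of -8.29 points (-14.9 to -1.71). In the short cohort it was 63.1% and 61.8%, a difference of -1.37 points (-7.27 to 4.50). At 2000 UMIs per cell the differences were -4.21 points (-10.9 to 2.66) and -3.90 points (-10.3 to 2.49). With a gate of a single Lyz2 UMI they were -4.65 points (-11.1 to 1.59) and -2.72 points (-8.12 to 2.64). The lower myeloid share in the long cohort thus exceeded counting error with the gate of 3 UMIs at full depth and not in these 2 alternatives. With 1 sample per arm no test between arms was possible within a cohort, and an exact sign-flip test over the 2 cohorts cannot go below p = 0.5 (two-sided).

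The makeup of the myeloid cells differed more than their number. C1q-positive cells, with at least 3 UMIs of C1qa, C1qb and C1qc together, were 357 of 531 myeloid cells (67.2%) after anti-MIF and 65 of 147 (44.2%) after anti–PD-1/anti-MIF in the long cohort, where the interval of the difference was -31.7 to -14.0 points. They were 20.1% and 17.3% in the short cohort, a difference of -2.76 points (-8.69 to 3.33). The difference thus exceeded counting error in the long cohort, also at 2000 UMIs per cell (-26.8 points, -36.1 to -16.6), and was within it in the short cohort. In the isotype and anti–PD-1 arms of the long cohort the share was 29.1% and 31.8%, so that the anti-MIF arm was the highest of these 4.

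Ly6c2-positive cells, which carry at least 3 UMIs of the monocyte antigen gene Ly6c2, made up a larger part of the myeloid cells in the combined arm of both cohorts. They were 35.8% after anti-MIF and 55.8% after anti–PD-1/anti-MIF in the long cohort, a difference of 20.0 points (10.9 to 28.7). The short-cohort shares stood at 62.8% and 72.8%, a difference of 9.94 points (2.72 to 16.9). At 2000 UMIs per cell the shares were 19.8% and 31.3% (long) and 40.5% and 53.0% (short), differences of 11.6 points (2.74 to 21.2) and 12.4 points (3.85 to 20.7). Of these 2 myeloid shares it was the one whose interval excluded 0 in the same direction in both cohorts, at full depth and after thinning. As a share of all cells, Ly6c2-positive cells differed by 7.24 points (1.60 to 13.3) in the long and 5.28 points (-0.735 to 11.3) in the short cohort, and after thinning by 4.15 points (-0.0323 to 9.09) and 5.25 points (-0.444 to 10.96), so that over all cells only the first interval excluded 0. The isotype and anti–PD-1 arms held 74.5% and 69.7% Ly6c2-positive myeloid cells in the long cohort, both above the combined arm, and 52.5% and 76.7% in the short cohort, so that the anti-MIF sample was the lowest of the 4 in the long cohort only.

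Among the T cells, regulatory T cells, those with a UMI of their defining transcription factor Foxp3, differed in the long cohort. They were 20 of 110 T cells (18.2%) after anti-MIF and 0 of 43 after anti–PD-1/anti-MIF, where a count of 0 allows up to 8.22% (exact binomial), and the difference was -18.2 points (-26.4 to -7.97). The short-cohort counts were 3 of 53 (5.66%) and 4 of 39 (10.3%), a difference of 4.60 points (-6.92 to 18.4). The isotype and anti–PD-1 arms of the long cohort held 1 of 57 and 3 of 77, so that the anti-MIF arm had the highest share of these 4. At 2000 UMIs per cell the long counts were 12 of 86 and 0 of 39.

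CD8 T cells, the T cells with a Cd8a or Cd8b1 UMI, were 68.2% of T cells after anti-MIF and 83.7% after anti–PD-1/anti-MIF in the long cohort (difference 15.5 points, -0.302 to 27.8). Among short-cohort T cells they were 73.6% and 59.0% (difference -14.6 points, -33.1 to 4.57). The CD8 share thus leaned in opposite directions, in both cohorts within counting error, although at 2000 UMIs per cell the long interval was 0.254 to 30.4 points. As a share of all cells, CD8 T cells were 8.38% and 12.5% in the long cohort, a difference of 4.12 points (0.234 to 8.74), and 6.88% and 4.83% in the short cohort (-2.05 points, -4.91 to 0.889). After thinning these differences were 5.50 points (1.59 to 10.2) and -1.71 points (-4.52 to 1.16), so over all cells the long interval excluded 0 and the short one did not. T cells with a UMI of Pdcd1, which encodes PD-1, were 70.0% and 79.1% of long-cohort and 50.9% and 35.9% of short-cohort T cells, again with intervals that held 0 (-7.18 to 22.2 and -33.5 to 5.36 points). At 2000 UMIs per cell these shares were 54.7% and 59.0% (long) and 36.8% and 31.0% (short). In myeloid cells the share with a Pdcd1 UMI was 1.32% and 0% (long) and 0.279% and 0.680% (short). Their median depths were 12841, 10653, 7588 and 6358 UMIs, against 4668, 5578, 3979 and 3496 in T cells. The share was thus lower in myeloid cells although they were deeper. The part of free RNA in these shares was not tested. Cycling T cells, with a UMI of Mki67 or Top2a, were 30.0% and 32.6% of long-cohort and 17.0% and 17.9% of short-cohort T cells. At 2000 UMIs per cell they were 18.6% and 23.1% (long) and 15.8% and 10.3% (short), and all intervals of the differences held 0.

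Rarer cells were counted by their markers over all cells of an arm. Natural killer cells numbered 11 (1.23%) and 9 (3.12%) in the long cohort, against 12 (2.12%) and 13 (2.73%) in the short. Conventional type 1 dendritic cells, which cross-present tumor antigen to CD8 T cells, numbered 40 (4.47%) and 18 (6.25%) in the long cohort, against 11 (1.94%) and 14 (2.94%) in the short. Both classes were numerically higher in the combined arm of each cohort, but only the interval for natural killer cells in the long cohort excluded 0 (0.139 to 4.66 points), and it held 0 after thinning (-0.0871 to 4.29 points). For type 1 dendritic cells the thinned difference was 2.19 points (0.323 to 5.15) in the long cohort and -0.110 points (-1.45 to 1.31) in the short cohort, from 4 and 3 cells, so their direction did not hold there. Mature dendritic cells, which carry Ccr7 and the actin-bundling gene Fscn1 and travel to lymph nodes, were 80 cells (8.94%) after anti-MIF and 10 (3.47%) after anti–PD-1/anti-MIF in the long cohort, a difference of -5.47 points (-8.05 to -2.19). The short cohort held 7 (1.23%) and 8 (1.68%). B cells were 25 (2.79%) and 4 (1.39%) in the long cohort, a difference within counting error (-1.40 points, -2.95 to 0.903). In the short cohort they were 0 of 567, which allows up to 0.648%, and 24 (5.04%), a difference of 5.04 points (3.28 to 7.39). At 2000 UMIs per cell they were 3 of 846 and 0 of 267 in the long cohort, so few were left there. The short counts were then 0 of 494 and 17 of 429. Plasmacytoid dendritic cells, the main source of type I interferon among blood cells, numbered 23 (2.57%) and 5 (1.74%) in the long and then 7 (1.23%) and 18 (3.78%) in the short cohort. The mature dendritic cell, B cell and plasmacytoid cell counts therefore did not repeat between the cohorts. Where a class is set by a UMI threshold, or a level is summed over an arm, fewer cells of a type and less RNA per cell cannot be told apart.

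**Figure D1:**
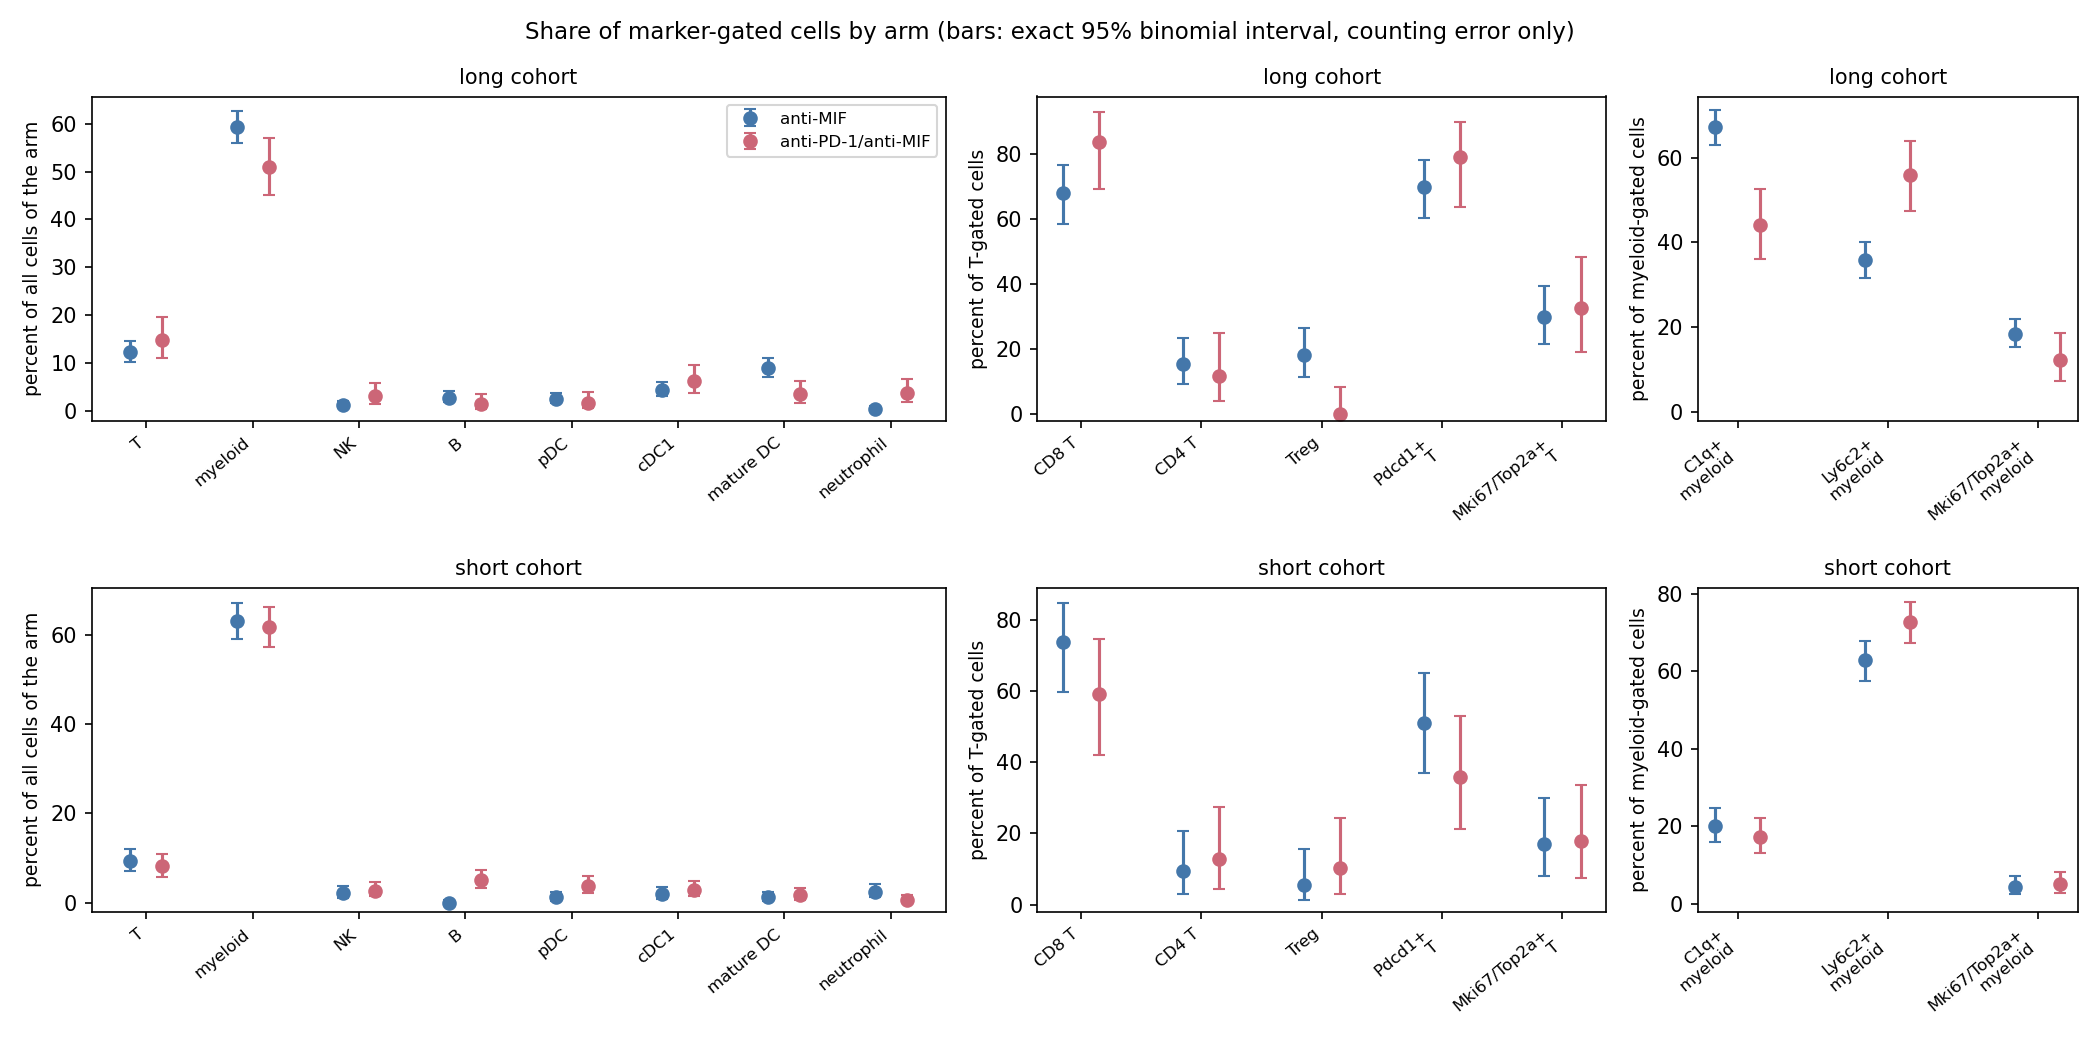
Percentage of cells in each marker-defined class in the anti-MIF (blue) and anti–PD-1/anti-MIF (red) arms of the long (top) and short (bottom) cohorts, over all cells, T cells and myeloid cells, with exact 95% binomial intervals of 1 sample each. The Ly6c2-positive share of myeloid cells lies higher in the combined arm in both cohorts (35.8% to 55.8% and 62.8% to 72.8%), while the C1q-positive share separates in the long cohort (67.2% to 44.2%).

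Gene levels were compared within each cohort as the ratio of CPM, and a gene was named when it differed at least 2-fold in the same direction in both cohorts among genes with at least 30 UMIs over the 2 arms in each. In T cells 3 of 1948 such genes were at least 2-fold higher (0.154%) and 1 was at least 2-fold lower (0.0513%) in the combined arm of both cohorts, while 7 (0.359%) passed 2-fold in opposite directions. In addition, UMIs were summed per arm and the 8 sums of the isotype, anti–PD-1, anti-MIF and combined arms were fitted together, with the cohort as a term and the cohorts as the only repeat. This edgeR quasi-likelihood fit called 2 of 5712 genes in T cells (0.035%, Benjamini-Hochberg adjusted p under 0.05), Phlda1 and Trav3-1, both higher, and 230 genes had an unadjusted p under 0.05. DESeq2 called 1 gene from these sums.

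Phlda1 (chr10:111506286-111508645, GRCm38, plus strand) encodes a pleckstrin homology-like protein first described in T cells. In T cells it was at 23 CPM after anti-MIF and 229 CPM after anti–PD-1/anti-MIF in the long cohort, and at 30.7 and 165 CPM in the short cohort. The isotype and anti–PD-1 arms lay between, at 114 and 129 CPM in the long and at 45.3 and 44.9 CPM in the short cohort, so the combined arm was the highest and the anti-MIF arm the lowest of these 4 in each cohort. The log2 ratio was 3.31 (2.48 to 4.24) in the long and 2.43 (1.19 to 3.87) in the short cohort, and edgeR gave a log2 fold change of 3.09 (SE 0.44, adjusted p = 0.0104). Its UMIs were few and came from few cells. They numbered 15 in 12 cells and 62 in 10 cells in the long cohort, and 7 in 4 cells and 27 in 6 cells in the short cohort, with 22 and 20 UMIs in the single highest cell of the 2 combined arms. Without the highest cell of each arm the log2 ratio was 3.0 and 1.29. The edgeR call was lost without the long anti-MIF sample (adjusted p = 0.772), without the cohort term (0.9998), after thinning (0.789), with single-UMI gates (0.0961) and at a hashtag ratio of 5 (0.0651). Among CD8 T cells alone Phlda1 was at 11.7 and 255 CPM in the long and 32.5 and 218 CPM in the short cohort.

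Ccl5 (chr11:83525778-83530518, minus strand), a chemokine made by effector and memory CD8 T cells that attracts T cells and monocytes, rested on far more molecules. It was at 2074 CPM after anti-MIF and 4534 CPM after anti–PD-1/anti-MIF in the long cohort, from 1350 and 1226 UMIs, and at 1355 and 2721 CPM in the short cohort, from 309 and 445 UMIs. Both ratios were close to 2-fold, at a log2 ratio of 1.13 (1.02 to 1.24) and 1.01 (0.79 to 1.22), and no single cell set them, since they were 1.11 and 1.01 without the highest cell of each arm. Over the 8 sums the difference did not pass adjustment (unadjusted p = 0.0287, adjusted p = 0.999 in edgeR). Ccl5 ran from 634 CPM in the short isotype to 5027 CPM in the short anti–PD-1 arm, so that the combined arm was not the highest of its cohort there. In CD8 T cells alone the log2 ratios were 1.05 and 1.22.

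Cysltr2, a receptor for cysteinyl leukotrienes, was at 32.3 and 74.0 CPM in the long and at 48.3 and 141 CPM in the short cohort. Its long ratio turned after thinning, to -0.18 on the log2 scale. Gzmf, a granzyme of strongly activated killer cells, was the gene that was lower in both cohorts, at 682 and 214 CPM in the long and 790 and 73.4 CPM in the short cohort. It was read in 9 and 5 T cells of the long cohort and in 2 and 1 of the short cohort, where 1 cell held 179 of the 180 anti-MIF UMIs. Its short value thus describes 1 cell.

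Trav3-1 (chr14:52580665-52581213, plus strand), a variable segment of the T cell receptor α chain, was the other edgeR call, at a log2 fold change of 6.10 (SE 0.63, adjusted p = 0.00257). Its UMIs came from the long cohort alone. It was found in 1 of 110 T cells after anti-MIF and in 10 of 43 after anti–PD-1/anti-MIF, but also in 20 of 57 in the isotype arm and in 1 of 77 after anti–PD-1. All 4 short arms had no Trav3-1 UMI. Another segment, Trav19, had the opposite pattern in the long cohort, in 15 of 110 and 0 of 43 T cells, and Trav13-1 was found in 10 and 1. DESeq2 did not call Trav3-1 (adjusted p = 0.9998), and the edgeR call was lost without either long sample, without the cohort term, after thinning (adjusted p = 0.789) and with single-UMI gates (0.0556). Segment use of this kind differs between mice and clones, and cells of single mice cannot be told apart here.

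Within T cells the summed RNA level of the target of the added antibody was lower rather than higher, within counting error. In the long cohort the share of cells with its RNA leaned the other way, also within counting error. Pdcd1-positive T cells there were 70.0% and 79.1% of T cells and 8.60% and 11.8% of all cells. Pdcd1 was at 578 CPM after anti-MIF and 477 CPM after anti–PD-1/anti-MIF in the long cohort (log2 ratio -0.28, -0.58 to 0.02), and at 250 and 165 CPM in the short cohort (-0.60, -1.32 to 0.09). Of 6 inhibitory receptor genes with at least 30 UMIs, Pdcd1 was lower in both cohorts and the other 5 had opposite signs, against 22.9% and 52.2% of all 1948 genes. Lag3, a receptor for MHC class II, was at 502 and 547 CPM in the long and 224 and 177 CPM in the short cohort, while Tox, a transcription factor of exhausted T cells, was at 444 and 385 CPM and at 184 and 508 CPM. The median log2 ratio of these 6 genes was -0.19 in the long and 0.34 in the short cohort, against -0.02 and 0.04 over all 1948 genes.

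Killing and cytokine genes did not go one way. Of 9 measured members of the cytotoxic effector list, 2 were higher in the combined arm in both cohorts (Ccl5 and Ccl4), 1 was lower in both (Gzmf) and 6 had opposite signs, which is near the 24.9%, 22.9% and 52.2% of all 1948 genes. Their median log2 ratio was 1.13 in the long and -0.34 in the short cohort. Gzmb, the main granzyme of CD8 T cells, was at 1052 and 2437 CPM in the long cohort (1.21, 1.05 to 1.37) and at 535 and 489 CPM in the short cohort (-0.13, -0.55 to 0.29). Ifng, which encodes interferon-γ, was at 298 and 799 CPM in the long cohort and at 149 and 73.4 CPM in the short cohort. Ccl3, a chemokine that draws myeloid cells, was at 207 and 995 CPM and then at 149 and 36.7 CPM. Prf1, the pore-forming protein, was at 267 and 525 CPM and at 184 and 73.4 CPM. All of these were higher in the combined arm of the long cohort and lower in that of the short cohort, except that Gzmb in CD8 T cells alone was at 492 and 569 CPM in the short cohort (0.21, -0.29 to 0.69). In the T cells of the short cohort the combined arm counted 12 Ifng, 6 Ccl3 and 12 Prf1 UMIs. The difference between the cohorts was not tested.

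Of 4 measured regulatory T cell genes, 3 had opposite signs in the cohorts and 1 was lower in both, against 52.2% and 22.9% of all 1948 genes. Their median log2 ratios were -1.69 in the long and 0.67 in the short cohort. These levels and the Foxp3 count come from the same cells. Foxp3 itself had fewer than 30 UMIs in the short cohort and was not among the 4 measured genes. It was at 137 CPM after anti-MIF in the long cohort, from 89 UMIs, and had no UMI after anti–PD-1/anti-MIF, at least 12.3-fold lower with 3 UMIs as the floor. Its short-cohort levels were 43.9 and 73.4 CPM. Ikzf2, which encodes Helios, was at 470 and 62.9 CPM in the long and at 246 and 489 CPM in the short cohort. Il2ra, the high-affinity interleukin-2 receptor chain, was at 246 and 37.0 CPM and at 87.7 and 135 CPM. Costimulatory receptors that regulatory and activated T cells share were lower in both cohorts for 3 of 7 measured genes, with none higher in both, where 22.9% of all 1948 genes were lower and 24.9% higher in both. Among them Tnfrsf4 (OX40) was at 579 and 214 CPM in the long and 268 and 202 CPM in the short cohort (unadjusted p = 0.0216, adjusted p = 0.999). Tnfrsf9 (4-1BB) was at 1065 and 374 CPM and at 364 and 312 CPM (unadjusted p = 0.00876, adjusted p = 0.975).

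**Figure D2:**
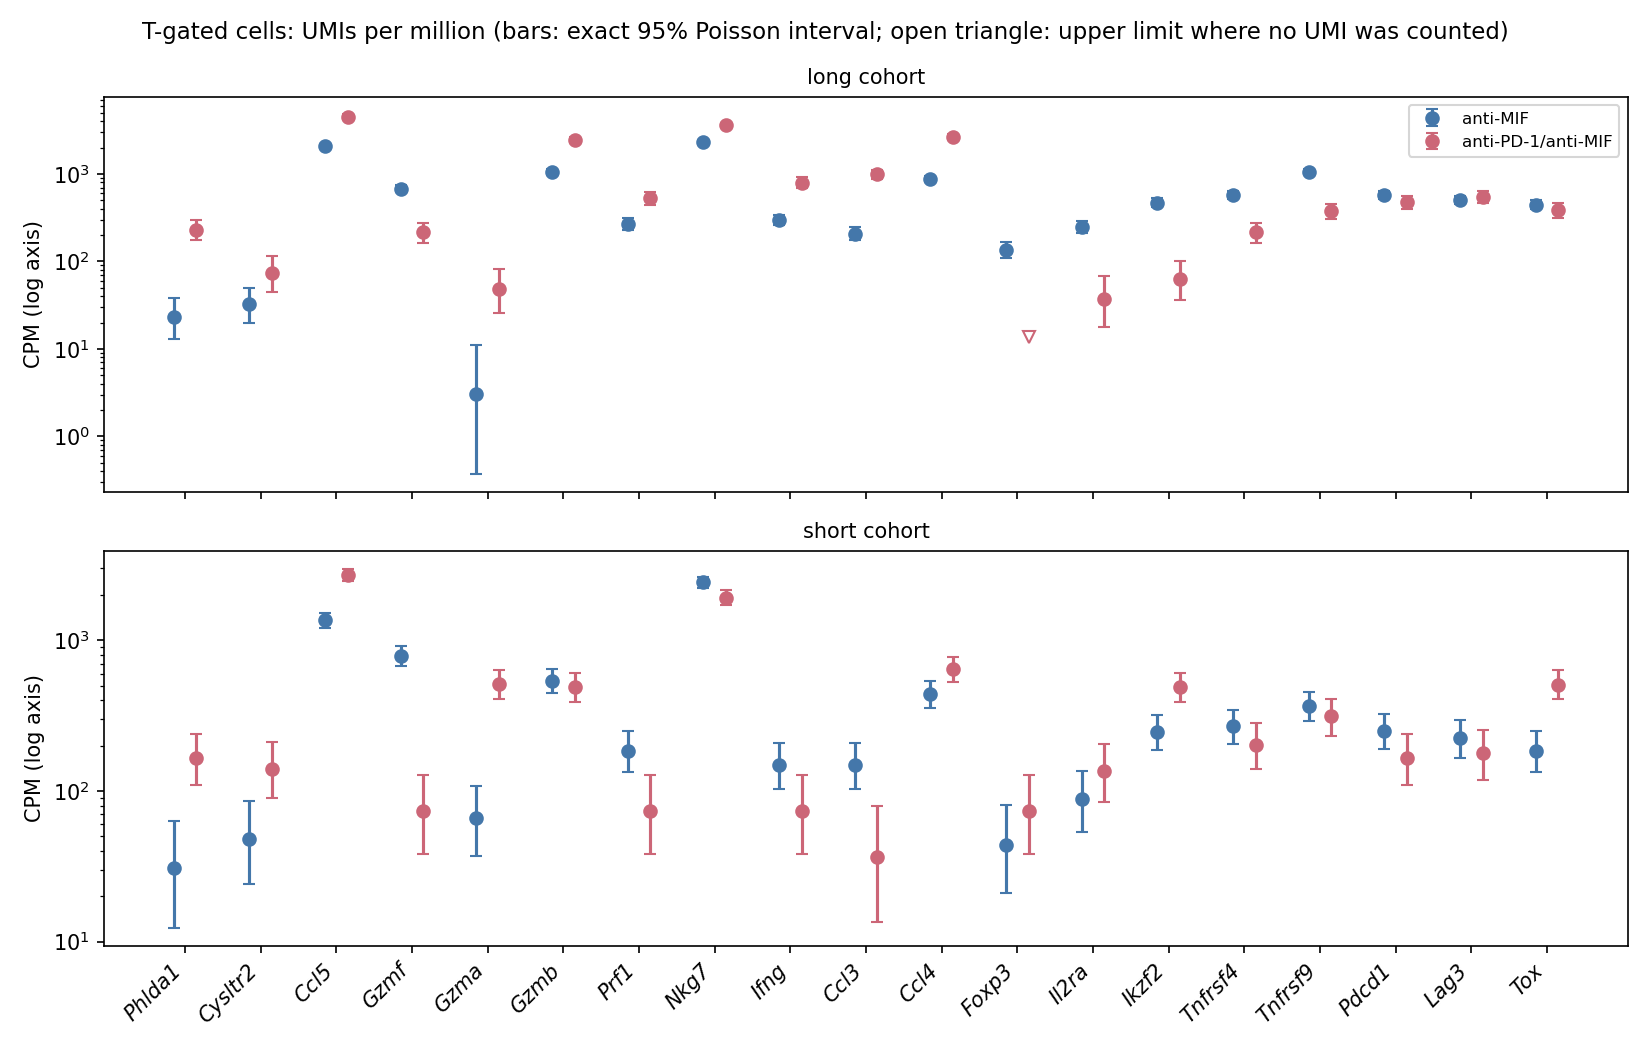
Level of 19 genes in T cells in CPM on a log axis, anti-MIF in blue and anti–PD-1/anti-MIF in red, long cohort above and short cohort below, with exact 95% Poisson intervals of 1 sample each. Phlda1 and Ccl5 lie higher in the combined arm in both panels, Ifng and Ccl3 change sides between the panels, and Foxp3 has no UMI in the long combined arm (open triangle, the upper limit).

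Stress and immediate early transcripts in T cells were higher in the combined arm for 6 of 9 measured genes in both cohorts, and the other 3 had opposite signs, against 24.9% and 52.2% of all 1948 genes, with medians of 1.60 in the long and 0.02 in the short cohort. Dnajb1, a partner of HSP70, was at 59.9 and 599 CPM in the long and at 184 and 177 CPM in the short cohort. Hspa1b was at 29.2 and 1361 CPM and at 307 and 312 CPM. No stress gene passed adjustment in edgeR, and 5 of 15 tested had an unadjusted value under 0.05, all higher, where 230 of all 5712 genes did in either direction. The isotype and anti–PD-1 arms of the long cohort were at 645 and 689 CPM for Hspa1b, so the anti-MIF sample was the lowest and the combined sample the highest of these 4.

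In myeloid cells, of 8189 genes, 2 were at least 2-fold higher (0.0244%) and 12 at least 2-fold lower (0.147%) in the combined arm of both cohorts, and 30 (0.366%) passed 2-fold in opposite directions. edgeR called none of 9733 genes (267 had an unadjusted p under 0.05) and DESeq2 called none. Across the 8189 genes the log2 ratios of the 2 cohorts had a Pearson's r of -0.19 and a Spearman's rho of -0.01, a description over genes that share 4 samples and are not independent replicates.

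Pf4 (chr5:90772435-90773383, plus strand), the chemokine platelet factor 4, which a subset of macrophages makes, had the most molecules of the 6 lower genes named by size. It was at 131 CPM after anti-MIF and 48.3 CPM after anti–PD-1/anti-MIF in the long cohort, from 905 and 78 UMIs, and at 55.2 and 13.5 CPM in the short cohort, from 156 and 27 UMIs. The log2 ratio was -1.44 (-1.80 to -1.11) and -2.03 (-2.68 to -1.43), and within C1q-positive cells alone it was -1.31 and -1.30, while the remaining myeloid cells were at 26.5 and 30.6 CPM in the long cohort and at 26.2 and 0.636 CPM in the short cohort, from 57 and 1 UMIs. The other arms did not order with treatment, since Pf4 was at 7.16 CPM in the long isotype and 67.6 CPM in the short isotype arm, and edgeR gave an unadjusted p of 0.0492 (adjusted p = 0.9998).

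Il1a, the alarmin interleukin-1α, was at 26.1 and 6.82 CPM in the long and at 25.4 and 10.0 CPM in the short cohort. Both anti-MIF samples were above all isotype and anti–PD-1 samples (10.7 and 10.4 CPM in the long, 23.1 and 20.2 CPM in the short cohort), and both combined samples were below them. The log2 ratios were -1.94 (-2.97 to -1.07) and -1.35 (-2.14 to -0.61), with an unadjusted p of 0.00065 and an adjusted p of 0.9998. After thinning they shrank to -0.32 and -0.55. In C1q-positive cells alone the ratios were -0.28 (-1.34 to 0.63) and 0.63 (-1.49 to 2.75), and in the other myeloid cells Il1a had 91 and 0 UMIs in the long cohort and a ratio of -1.69 (-2.61 to -0.87) in the short cohort. Of the other lower genes, Cd300e, an activating receptor of monocytes, was at 18.3 and 7.44 CPM and at 15.6 and 5.51 CPM, and Cd36, a scavenger receptor for lipids, was at 13.6 and 6.20 CPM and at 20.9 and 8.52 CPM. H6pd, an enzyme that makes NADPH in the endoplasmic reticulum, was at 15.7 and 6.82 CPM and at 16.6 and 7.51 CPM, and Nif3l1 at 18.1 and 7.44 CPM and at 9.54 and 2.51 CPM. The 2 higher genes were Clec10a, a lectin of dendritic cells and macrophages, at 10.4 and 23.5 CPM and at 6.72 and 17.5 CPM, and Smim40, at 3.77 and 11.2 CPM and at 5.30 and 12.0 CPM. All of these were low, with at most 126 UMIs in a sample other than for Pf4 and Il1a, and in Clec10a 1 cell held 12 of 38 and 11 of 35 combined-arm UMIs.

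Most genes of mature macrophages were lower in the combined arm of the long cohort. Of 10 measured members of the C1q and macrophage list, 9 had opposite signs and 1 was lower in both cohorts, against 50.6% and 28.6% of all 8189 genes, with medians of -1.19 and 0.27. C1qa, the first chain of C1q, was at 2655 and 1075 CPM in the long cohort (-1.30, -1.38 to -1.23) and at 293 and 321 CPM in the short cohort (0.13, -0.02 to 0.28). Mrc1, the mannose receptor of tissue macrophages, was at 77.6 and 27.9 CPM and at 12.7 and 15.5 CPM. The whole list summed to 10015 CPM in the long anti-MIF sample and 4524 CPM in the combined one, where isotype and anti–PD-1 stood at 4413 and 3778 CPM, so the anti-MIF sample was the highest of the 4.

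Apoe and Trem2, which mark lipid-laden macrophages, were lower in both cohorts. Apoe, a lipid carrier, was at 3045 and 1094 CPM in the long and at 742 and 489 CPM in the short cohort, log2 ratios of -1.48 and -0.60 (unadjusted p = 0.0151, adjusted p = 0.9998). Trem2, a lipid-sensing receptor, was at 249 and 122 CPM and at 99.3 and 61.6 CPM, log2 ratios of -1.03 and -0.69. Within C1q-positive cells alone the Apoe ratios were -1.25 and -0.60, and within the other myeloid cells they were -0.71 and -0.52, so the sign was the same in both kinds of cells. The lipid-associated list as a whole did not move one way. Of 11 measured members 4 were lower and 1 was higher in both cohorts, near the 28.6% and 20.8% of all 8189 genes, with medians of -0.20 and -0.34.

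Monocyte genes were higher in the combined arm of the long cohort. Of 9 measured genes 3 were higher in both cohorts, none was lower in both and 6 had opposite signs, against 20.8%, 28.6% and 50.6% of all 8189 genes, with medians of 1.72 and -0.03. Ly6c2 itself was at 786 and 1278 CPM in the long and at 1639 and 2337 CPM in the short cohort, log2 ratios of 0.70 (0.63 to 0.77) and 0.51 (0.45 to 0.57). Within C1q-positive cells they were 0.73 and 0.97, and within the other myeloid cells 0.06 (-0.03 to 0.16) and 0.41 (0.34 to 0.47), so that the long difference was within counting error there. Plac8, a gene of Ly6C-high monocytes, was at 881 and 2142 CPM and at 4030 and 3960 CPM. Chil3, a chitinase-like gene of monocytes, had a log2 ratio of 3.46 in the long cohort, where 1 cell held 456 of the 1169 combined-arm UMIs, and of -0.54 in the short cohort. The summed list was 2222 CPM in the long anti-MIF sample, against 5167, 6586 and 6707 CPM in the combined, isotype and anti–PD-1 samples. Neutrophil markers in the same myeloid cells also rose in the long cohort, from 155 to 6252 CPM, and stood at 1104 and 93.7 CPM in the short cohort. The part of neutrophils in the monocyte list was not tested.

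Antigen presentation had opposite directions in the 2 cohorts. All 13 MHC class I genes were lower in the combined arm of the long cohort and higher in that of the short cohort, with medians of -0.48 and 0.25, where 50.6% of all genes had opposite signs and the medians over all genes were -0.09 and 0.02. Of 8 measured MHC class II genes, 7 had the same pattern and 1 was lower in both, with medians of -0.64 and 0.63. H2-Aa, the class II α chain that presents peptides to CD4 T cells, was at 5725 and 3596 CPM in the long cohort (-0.67, -0.71 to -0.63) and at 1611 and 2757 CPM in the short cohort (0.78, 0.72 to 0.83). H2-K1, a class I heavy chain, was at 1752 and 1113 CPM and at 1183 and 1383 CPM.

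Cd74, the class II invariant chain and MIF receptor, was read in cells of like C1q state. It was at 16971 and 11112 CPM in all myeloid cells of the long cohort, at 17932 and 16165 CPM in its C1q-positive cells and at 14276 and 6572 CPM in the remaining cells. In short-cohort samples it was at 5067 and 7955 CPM in all myeloid cells, at 8643 and 14506 CPM in C1q-positive cells and at 3990 and 6189 CPM in the remaining cells. In the short cohort the log2 ratio was therefore alike in the 2 kinds of cells, 0.75 and 0.63, and in the long cohort it was -0.15 and -1.12.

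Interferon-γ response genes had opposite signs in the cohorts for 21 of 24 measured members (4 of the 24 were higher in the combined arm of the long cohort and 23 in that of the short cohort), with 3 higher in both cohorts and none lower in both, against 50.6%, 20.8% and 28.6% of all 8189 genes, and medians of -0.31 and 0.43. Cxcl9, the interferon-γ-induced chemokine that recruits CXCR3-positive T cells, was at 365 and 242 CPM in the long cohort and at 304 and 565 CPM in the short cohort. In long C1q-positive cells alone it was at 331 and 350 CPM (0.08, -0.11 to 0.27), and in the remaining long myeloid cells at 460 and 146 CPM (-1.66). The short log2 ratios were 0.95 and 0.93 in the same order. Iigp1, an interferon-induced GTPase, was at 83.4 and 22.9 CPM and at 20.5 and 98.7 CPM. Cd274, which encodes PD-L1, was among the 3 genes that were higher in both, at 144 and 193 CPM (0.42, 0.23 to 0.60) and at 223 and 264 CPM (0.25, 0.08 to 0.41). Over the 8 sums the Cd274 difference was within the spread between samples (unadjusted p = 0.307).

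Type I interferon response genes were the list with the most members higher in both cohorts. Of 17 measured genes 11 were higher in both, 1 was lower in both and 5 had opposite signs, against 20.8%, 28.6% and 50.6% of all genes, with medians of 0.23 and 0.31. Isg15, a ubiquitin-like antiviral protein, was at 834 and 1164 CPM in the long cohort (0.48, 0.40 to 0.56) and at 1064 and 1620 CPM in the short cohort (0.61, 0.53 to 0.68). Ifit3, which binds viral RNA complexes, was at 211 and 297 CPM and at 163 and 243 CPM, log2 ratios of 0.49 and 0.58. Ly6a, the Sca-1 antigen, had opposite signs, at 1717 and 1175 CPM and at 869 and 1385 CPM. Over the 8 sums edgeR gave Isg15 a log2 fold change of 0.59 (SE 0.26, adjusted p = 0.9998) and Ifit3 one of 0.59 (SE 0.23, adjusted p = 0.9998). Of the 17 genes 3 had an unadjusted value under 0.05, all higher, and none passed adjustment. In both cohorts the anti–PD-1 sample had the highest summed level of this list, 12960 and 11909 CPM, above the combined samples at 9232 and 11347 CPM. The anti-MIF samples were at 8426 and 9161 CPM. Isotype samples were at 10853 and 7462 CPM, above both compared arms in the long cohort and below both in the short.

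Many promoters of the 2 interferon lists hold the same letter pattern, which is shown for 2 genes of each list. Copies of GAAA separated by any 2 bases (GAAA, NN, GAAA) were searched on either strand, the core of the interferon-stimulated response element, in the RefSeq promoters (250 bases before to 50 after the gene start, GRCm38.p6). The pattern was present in 1079 of 27025 promoters (3.99%), in 7 of the 13 type I interferon genes with a promoter in the table (53.8%), in 10 of 17 interferon-γ genes (58.8%), in 3 of 11 MHC class I genes (27.3%) and in 0 of 7 MHC class II genes. Windows of 30 bases around the match are given on the strand of the gene, with the match in capitals.
Isg15, chr4:156200877-156200906, minus strand: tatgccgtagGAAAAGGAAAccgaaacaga
Ifit3, chr19:34583363-34583392, plus strand: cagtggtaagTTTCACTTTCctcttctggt
Gbp2, chr3:142620594-142620623, plus strand: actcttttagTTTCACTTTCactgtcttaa
Cxcl10, chr5:92349083-92349112, minus strand: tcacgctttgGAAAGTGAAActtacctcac
Isg15 and Ifit3 were higher in both cohorts, while Gbp2, an interferon-induced GTPase, was at 336 and 309 CPM and at 326 and 503 CPM, and Cxcl10, a ligand of CXCR3, was at 636 and 458 CPM and at 687 and 930 CPM. The same letters thus stood in promoters of genes with either pattern. A match is a description of sequence and not a bound site.

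**Figure D3:**
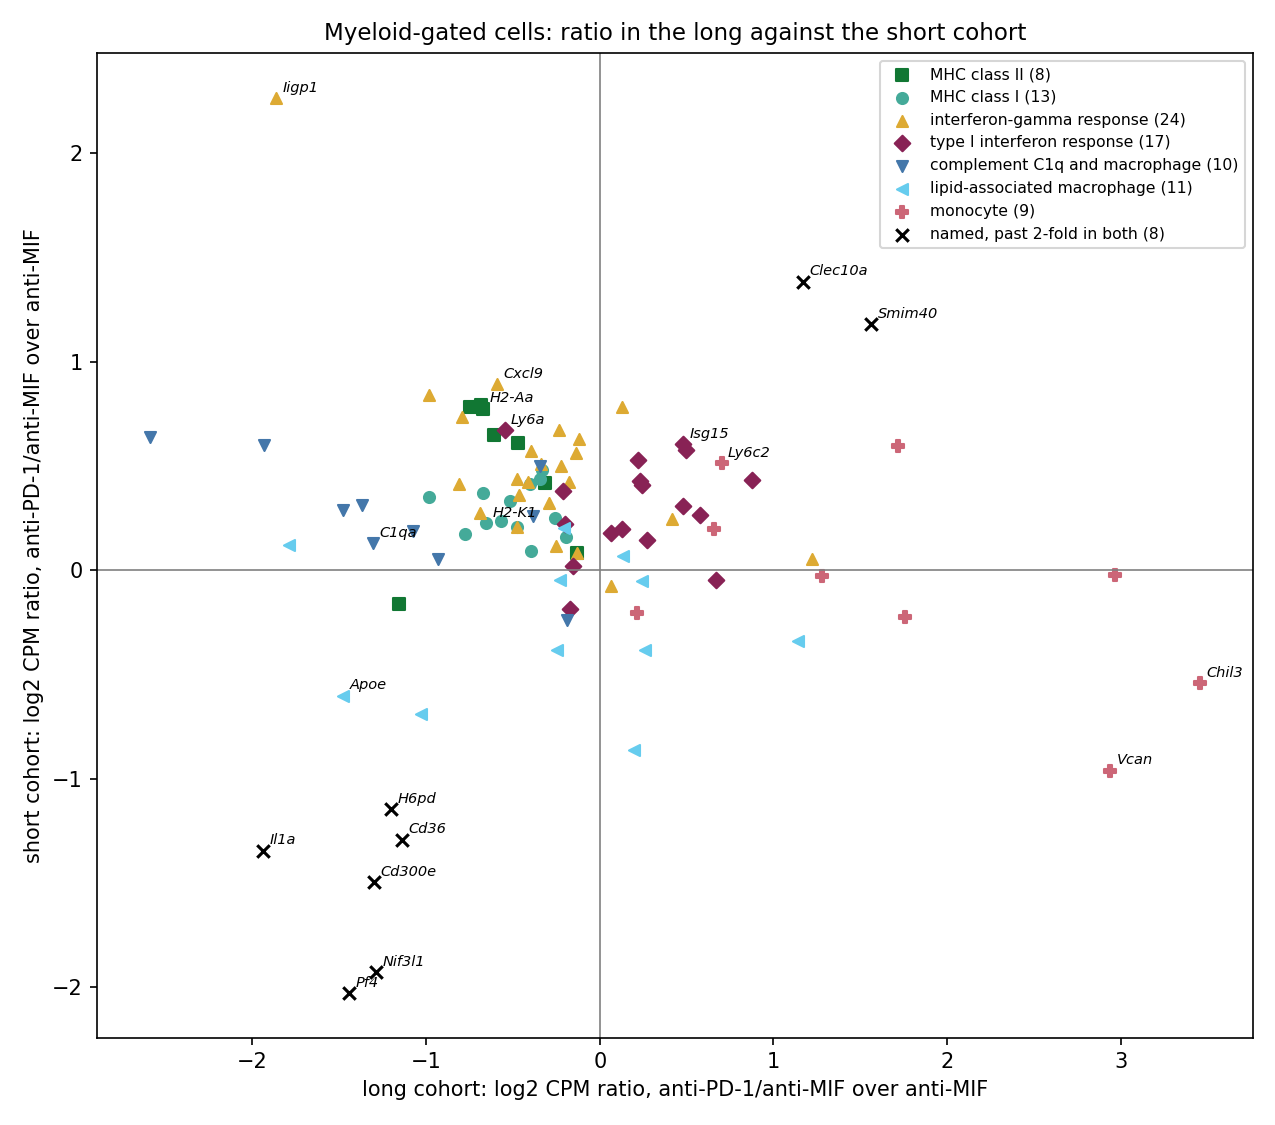
Log2 CPM ratio of anti–PD-1/anti-MIF over anti-MIF in myeloid cells, long cohort on the x axis and short cohort on the y axis, with 1 point per gene and the measured members of 7 lists marked by shape and color. MHC class I, MHC class II and most interferon-γ genes lie in the upper left, 11 of 17 type I interferon genes in the upper right, and the crosses are the named genes past 2-fold in both cohorts.

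**Figure D4:**
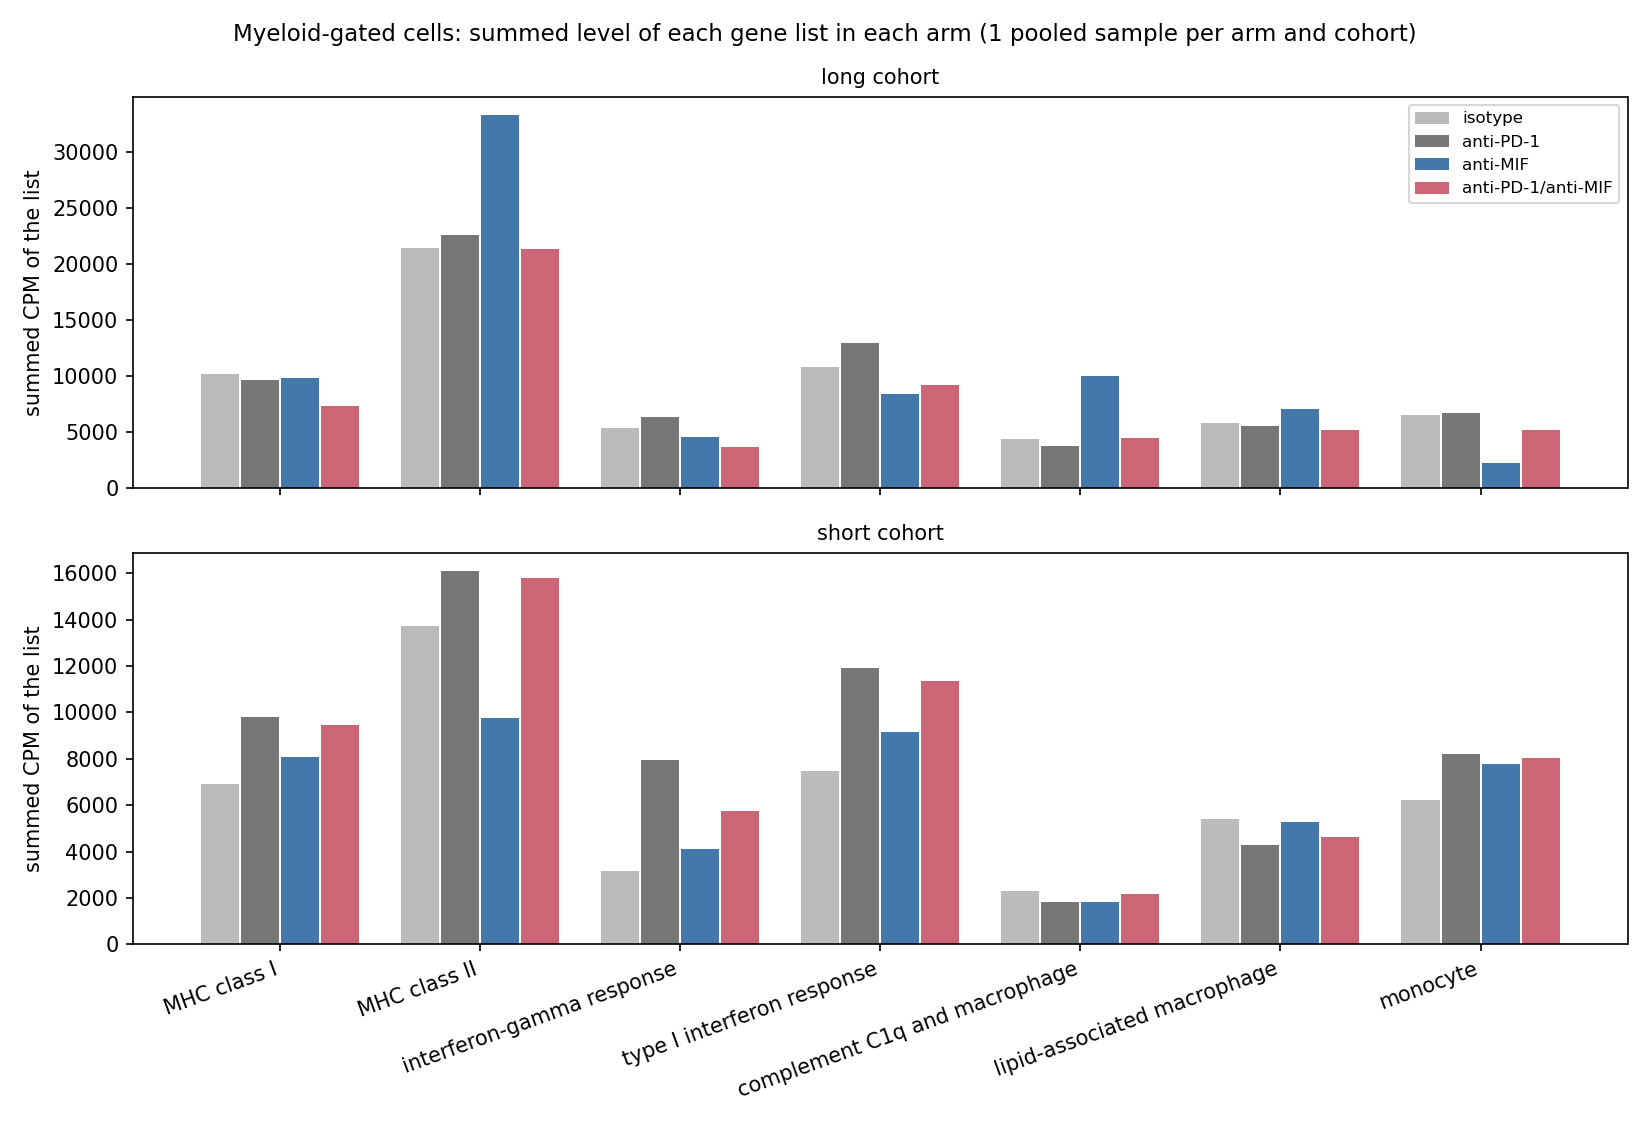
Summed CPM of each list in myeloid cells of the isotype, anti–PD-1, anti-MIF and combined arms, 1 sample per bar, long cohort above and short cohort below. In the long cohort the anti-MIF bar is the highest of the 4 for C1q and MHC class II and the lowest for monocyte genes, and in the short cohort it is the lowest for MHC class II.

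Both arms received the MIF antibody. Over all cells Mif was at 768 and 599 CPM in the long cohort (-0.36, -0.44 to -0.28) and at 799 and 773 CPM in the short cohort (-0.05, -0.13 to 0.03), and Ddt, its homolog, was at 73.8 and 70.0 CPM and at 56.9 and 58.8 CPM. Cxcr4, the chemokine receptor through which MIF can act, was higher in myeloid cells of both combined arms, at 90.4 and 137 CPM and at 213 and 273 CPM (unadjusted p = 0.0309, adjusted p = 0.9998). Cd44, the signaling partner of CD74, was at 374 and 468 CPM and at 747 and 687 CPM. In T cells Cd74 was at 313 and 96.2 CPM and at 87.7 and 42.8 CPM, lower in both cohorts (unadjusted p = 0.00199, adjusted p = 0.632), and macrophage transcripts in the same T cells were lower as well, at 99.9 and 25.9 CPM and at 13.2 and 6.12 CPM. The part of those transcripts in the Cd74 difference was not tested.

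Over all cells 17 of 9355 genes were at least 2-fold higher (0.182%) and 8 at least 2-fold lower (0.0855%) in the combined arm of both cohorts, while 34 (0.363%) passed 2-fold in opposite directions. edgeR called none of 11207 (385 had an unadjusted p under 0.05), while DESeq2 called 4. The highest were genes of connective tissue. Col3a1, a fibrillar collagen, was at 0.105 and 39.9 CPM in the long cohort, from 1 and 106 UMIs, and at 0 and 49.6 CPM in the short cohort, at least 62.2-fold higher. Dcn, a proteoglycan of fibroblasts, was at 0 and 120 CPM and at 0 and 17.7 CPM, each time from 1 cell. They came from very few cells. Of the combined arm, 3 long cells held 524 of the 526 UMIs of the 5 fibroblast markers and 1 short cell held 348 of 350, all 4 without a UMI of Ptprc, the CD45 gene. The anti-MIF arms held 18 and 5 such UMIs. Without cells of this kind 15 genes passed, 5 higher and 10 lower. Ebf1, a transcription factor of B cells that stromal cells also express, was at 0.948 and 21.1 CPM and at 0 and 64.9 CPM, and in the short cohort its 183 UMIs lay in 24 cells.

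Of the 6 named genes lower over all cells, Pf4, Cd300e and Il1a were also named in myeloid cells and Gzmf in T cells, with Pf4 at 96.5 and 31.6 CPM and at 44.1 and 12.1 CPM. Cd101, an inhibitory surface protein of myeloid and T cells, was also lower, at 15.5 and 6.02 CPM and at 14.4 and 3.90 CPM (unadjusted p = 0.00178, adjusted p = 0.795). Klrb1c, the NK1.1 antigen of natural killer cells, was higher, at 4.32 and 13.2 CPM and at 6.91 and 14.9 CPM. Natural killer cells were counted by a UMI of Klrb1c or Ncr1, so this level and their count rest partly on the same UMIs. The 6 measured natural killer markers had median log2 ratios of 1.33 in the long and 0.31 in the short cohort. Over all 9355 genes the medians were -0.06 and 0.02. Xcr1, the chemokine receptor of conventional type 1 dendritic cells, was at 1.47 and 20.7 CPM in the long cohort, in 2 and 9 cells, and at 2.13 and 1.77 CPM in the short cohort. A UMI of Xcr1 or Clec9a set the class of these cells, so Xcr1 is not independent of their count. Ccr7, a marker of mature dendritic cells and so not independent of their count, was at 404 and 191 CPM and at 71.8 and 69.5 CPM. The 4 measured markers of mature dendritic cells had median log2 ratios of -1.03 in the long and 0.48 in the short cohort, against -0.06 and 0.02 over all 9355 genes. Ccr7 and Fscn1 also set the class.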

How the data were processed

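The authors deposited, for each of 2 cohorts, a matrix of UMI counts per gene and of hashtag counts per barcode. Per the labels these came from Cell Ranger 7.1.0 and the mm10 genome, with Seurat 5.1.0 and R 4.3.2 named for later steps. All 32285 genes were read, no value column was unmapped, and library depth was 23702910 (long) and 31799441 (short) gene UMIs. Barcodes were limited to 200 to 5000 genes and 5% mitochondrial counts and assigned by a hashtag ratio of 3. A doublet of 2 arms fails this ratio where both hashtags are of like depth and can pass where they are not. Median own-hashtag UMIs ran from 920 to 2911 over the long arms and from 375.5 to 1526 over the short arms. A doublet within an arm is kept, and no other doublet caller was run. The study states the same gene and mitochondrial limits, but called hashtags by their enrichment and not by the ratio used here, so its cells are not the same set. The remaining hashtag, anti-PD1-MIF-DDT, was left out.

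Sums per arm were tested with edgeR 4.0.16 (filterByExpr, TMM, quasi-likelihood) in R 4.3.3, with DESeq2 1.42.0 as an alternative. HTODemux used Seurat 5.3.0. Ratios used Python 3.11.15, numpy 2.4.6, scipy 1.17.1 and pandas 2.3.3, counts under 3 raised to 3, and no ratio where both arms held 3 or fewer. Share differences carry Newcombe and shares exact binomial intervals. Named genes were the 6 highest and 6 lowest genes past 2-fold in both cohorts for all, T and myeloid cells (receptor segments, Gm and Rik symbols only counted), the edgeR calls, and list members. Arms, gates and lists were chosen with earlier results of these data known. The fit was tested on simulated counts. Positions are from GENCODE vM21 (GRCm38), where all 340 genes matched.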

Additional observations from a re-analysis of the deposited data

Results flagged for a closer look

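The values below stand out because the cohorts moved in opposite directions, at least 2-fold each way for genes. There is 1 sample per arm and cohort, and the difference between the cohorts was not tested. The share of neutrophils, set by S100a8 and S100a9 with Csf3r or Cxcr2, was 3.48 points higher in the combined arm of the long cohort (3 and 11 cells) and 1.84 points lower in that of the short cohort (-1.84 points, 14 and 3 cells). At 2000 UMIs per cell the differences were 0.887 and -0.779 points. In T cells the log2 ratio of anti–PD-1/anti-MIF over anti-MIF was 1.42 and -1.02 for Ifng and 2.26 and -2.02 for Ccl3 (long, then short).

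In myeloid cells the granulocyte genes led. S100a8 had log2 ratios of 5.87 and -4.83 and S100a9 of 5.47 and -7.95. In the long combined arm 1 cell held 3409 of the 5259 S100a8 UMIs, and in the short anti-MIF arm 1 cell held 903 of 1447. Camp had 10.66 and -2.87, Ngp 11.51 and -4.47, and Retnlg 3.97 and -6.75, with an arm under 3 UMIs set to 3. Cxcl3, a neutrophil-attracting chemokine, had 1.75 and -6.26. The remaining genes were Tnfrsf9, with -3.69 and 1.40, and Iigp1, with -1.86 and 2.27.

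The remaining hashtag, anti-PD1-MIF-DDT, marked 325 long and 1071 short cells. The sample labels do not list this arm, and no comparison used it.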

How the results depend on the processing

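Share differences of T and myeloid cells kept their sign under every alternative hashtag limit, HTODemux, 10% mitochondrial counts, no upper gene limit, single-UMI gates and thinning, but the long myeloid interval held 0 under the last 2 of these. Of 404 ratios of named genes under alternatives other than the split by C1q state or CD8, 403 kept their sign, and Cysltr2 in long T cells turned to -0.18 after thinning to 2000 UMIs. The 404 values are repeats of 49 ratios over largely the same cells. The genes were also named from these data, so their kept signs are no separate support. Within the C1q split, Pf4 turned to 0.21 in long C1q-low cells, and in short C1q-positive cells Il1a turned to 0.63, Cd300e to 0.95 and Clec10a to -0.11. Cxcl9 turned to 0.08 in long C1q-positive cells. The counts of genes depended on the settings, and the causes were not tested. Over all cells 25 genes past 2-fold in both cohorts became 8 after thinning, 3 at 100 UMIs or more, 164 with no minimum, 134 at 1.5-fold and 15 without the fibroblast-marker cells. In T cells 4 became 9 with single-UMI gates, 2 at 100 UMIs, 79 with no minimum and 52 at 1.5-fold. In myeloid cells 14 became 22 with single-UMI gates, 7 after thinning, 1 at 100 UMIs, 88 with no minimum, 105 at 1.5-fold, 8 with TMM scaling and 8 in C1q-low cells only. The alternatives without fibroblast-marker cells, without the highest cell of a gene, in CD8 T cells only and in C1q-low cells only were chosen after seeing the data.

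edgeR called 0 genes over all cells, but 70 with no filter on low counts, 12 from the 4 sums of the arms compared, 1 at 10% mitochondrial counts and, in DESeq2, 4, and 0 to 4 with 1 sample left out. In T cells the 2 calls became 51 with no filter, 1 in DESeq2, 1 at a hashtag ratio of 5, 0 with single-UMI gates, 0 after thinning and 1 to 19 with 1 sample left out. In myeloid cells 0 became 45 with no filter and 0 to 22 with 1 sample left out. The arms of a library are paired by the cohort term, and without this block 0 genes were called in T cells, with no other call altered. A left-out arm leaves a lone sample assumed to vary like the others. Depth limits T cells most, with 163515 to 650951 UMIs per sample.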
